A study of Homo sapiens with 6 samples.

Results

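API5 and the inhibitor-of-apoptosis (IAP) genes XIAP, BIRC2, BIRC3, BIRC5 and BIRC6 were followed in HCT116 cells given extra miR-224. HCT116 is an established human colon carcinoma line. Control cells received control oligos and the other cells received miR-224 precursors, both at 50 nM, and cells were harvested 24 h later for total RNA. Both groups were transfected, so no untransfected cells enter the comparison, and the data come from 1 cell line. Each group had 3 Affymetrix expression arrays, and the series describes them as pairs from 3 independent experiments, so each miR-224 array was compared with the control array of the same number. The comparison asks which transcripts differ when these cells are given miR-224.

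The members were all probe sets that the array annotation pairs with one of these gene symbols and no other. A probe set is a group of short probes that together read one stretch of a transcript. The rule found 19 probe sets of 54675 on the array, for 5 of 19775 genes: 5 for API5, 7 for XIAP, 1 for BIRC2, 4 for BIRC5 and 2 for BIRC6. It found 0 for BIRC3, which was not analysed here. Values are expression on a log scale read as log2, and the median over all probe sets was 3.46. Of the 19 probe sets, 15 had a mean at or above that median, and the other 4 (1 of API5 and 3 of XIAP) are called dim here.

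API5, also known as AAC-11, is a nuclear protein that protects cells from death when growth factors are withdrawn, and it binds Acinus, a factor of chromatin condensation in apoptosis. It carries no BIR domain and is not an IAP by structure. The IAP proteins carry BIR domains, zinc-binding folds through which XIAP holds caspases inactive, and several of them are also ubiquitin ligases. BIRC2 and BIRC3 act in complexes of TNF receptors and in NF-kB signalling, BIRC5 (survivin) acts mainly in mitosis as part of the chromosomal passenger complex, and BIRC6 is a very large ubiquitin-conjugating enzyme. A microRNA pairs with messenger RNAs mainly through its seed near the 5′ end, and lowers their level or their translation.

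The transfected precursor is the agent that sets the groups apart, so the RefSeq sequences of miR-224 (GRCh38.p14) are shown, 5′ to 3′. In the mature strands the capitals mark the seed, bases 2 to 8, and in the hairpin they mark both mature strands. The hairpin lies on the minus strand at chrX:151958578-151958658.
hsa-miR-224-5p: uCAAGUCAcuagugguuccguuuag
hsa-miR-224-3p: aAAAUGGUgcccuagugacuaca
MIR224 hairpin: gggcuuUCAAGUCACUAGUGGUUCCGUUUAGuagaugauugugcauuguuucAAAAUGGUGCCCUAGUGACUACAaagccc

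A messenger RNA paired with the whole 5p seed would hold UGACUUG, and one paired with the 3p seed would hold ACCAUUU. Of 2370 mature human miRNA names in the RefSeq table, 0 others had the seed of either strand. Older database entries begin the 5p strand 1 base later, which moves the seed to AAGUCAC and its complement to GUGACUU. Transcript sequences of API5 and the IAP genes were not used here, so no site in them was looked for.

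The cells carried the markers of a colon epithelial line. All 7 such markers were at or above the median, from 3.95 for VIL1 to 12.3 for KRT18, and EPCAM stood at 10.4. The 4 measured leukocyte markers lay below it, at 2.37 to 3.32, and their summed level was 11.2 to 11.4 in control and 11.2 to 11.5 in miR-224 arrays. Of the other marker lists, 3 of 4 fibroblast, 2 of 3 endothelial and 1 of 2 hepatocyte genes were at or above the median, the highest being COL1A1 at 5.96, while PTPRC and ALB read 2.56 and 2.21. Experiment 1 stood apart from the others by the array's own controls: its 5′ actin probe set averaged 4.28, against 12.4 in experiments 2 and 3, while the 3′ actin probe set averaged 12.5 in either. Both arrays of experiment 1 had this low 5′ signal.

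API5 had the largest difference of all members, and it was lower in the miR-224 cells. The brightest API5 probe set (201687_s_at) read 8.92, 8.41 and 8.23 in control cells of experiments 1, 2 and 3, and 8.54, 7.02 and 6.76 in miR-224 cells. Every miR-224 array was below the control array of its own experiment, but the groups overlapped, because miR-224 cells of experiment 1 were above control cells of experiments 2 and 3. The control mean was 8.52 ± 0.36 (SD, n = 3) and the miR-224 mean was 7.44 ± 0.96 (SD, n = 3). In bulk RNA, fewer cells with the transcript and less of it per cell cannot be told apart.

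The difference was -1.08 ± 0.20 (SE; 95% interval -1.53 to -0.62) on the log2 scale, so that miR-224 cells held 47.3% of the control signal (34.5% to 64.9%). Each SE and interval of a difference here is from limma, which draws the variance toward a value estimated over all those fitted. The 3 differences themselves had an SD of 0.61 (n = 3), so their own spread was wider than this SE conveys. The difference did not pass the test over all 54613 probe sets (limma with experiment as a block, adjusted p = 0.23, unadjusted p = 0.00054). In that test 0 probe sets passed and 9.80% had an unadjusted p under 0.05. The unadjusted p of this probe set ranked 123 among the 54613, and when each of 19775 genes was represented by its brightest probe set, 9 genes including API5 had a difference as low as or lower than that of API5.

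The size differed between experiments. The log2 difference was -0.38, -1.39 and -1.46 in experiments 1, 2 and 3, which left 76.8%, 38.1% and 36.2% of the control signal. Whether the smaller difference in experiment 1 goes with its low 5′ signal was not tested. With both arrays of experiment 1 left out, API5 fell by 1.43 ± 0.13 (SE; limma adjusted p = 0.013), and 0.242% of all probe sets passed as lower in that fit, which leaves 1 residual degree of freedom a probe set. Without experiment 2 or 3 the difference was -0.92 and -0.89 and did not pass (limma adjusted p = 0.71 and 0.52). With an intensity trend and robust variances the limma adjusted p over all probe sets was 0.052, where 0.0458% of probe sets passed as lower. Over the brightest probe set of each gene the limma adjusted p was 0.14 without that trend and those variances. With them it was 0.018, in a fit chosen after seeing the data, where 0.207% of genes passed as lower.

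**Figure D1:**
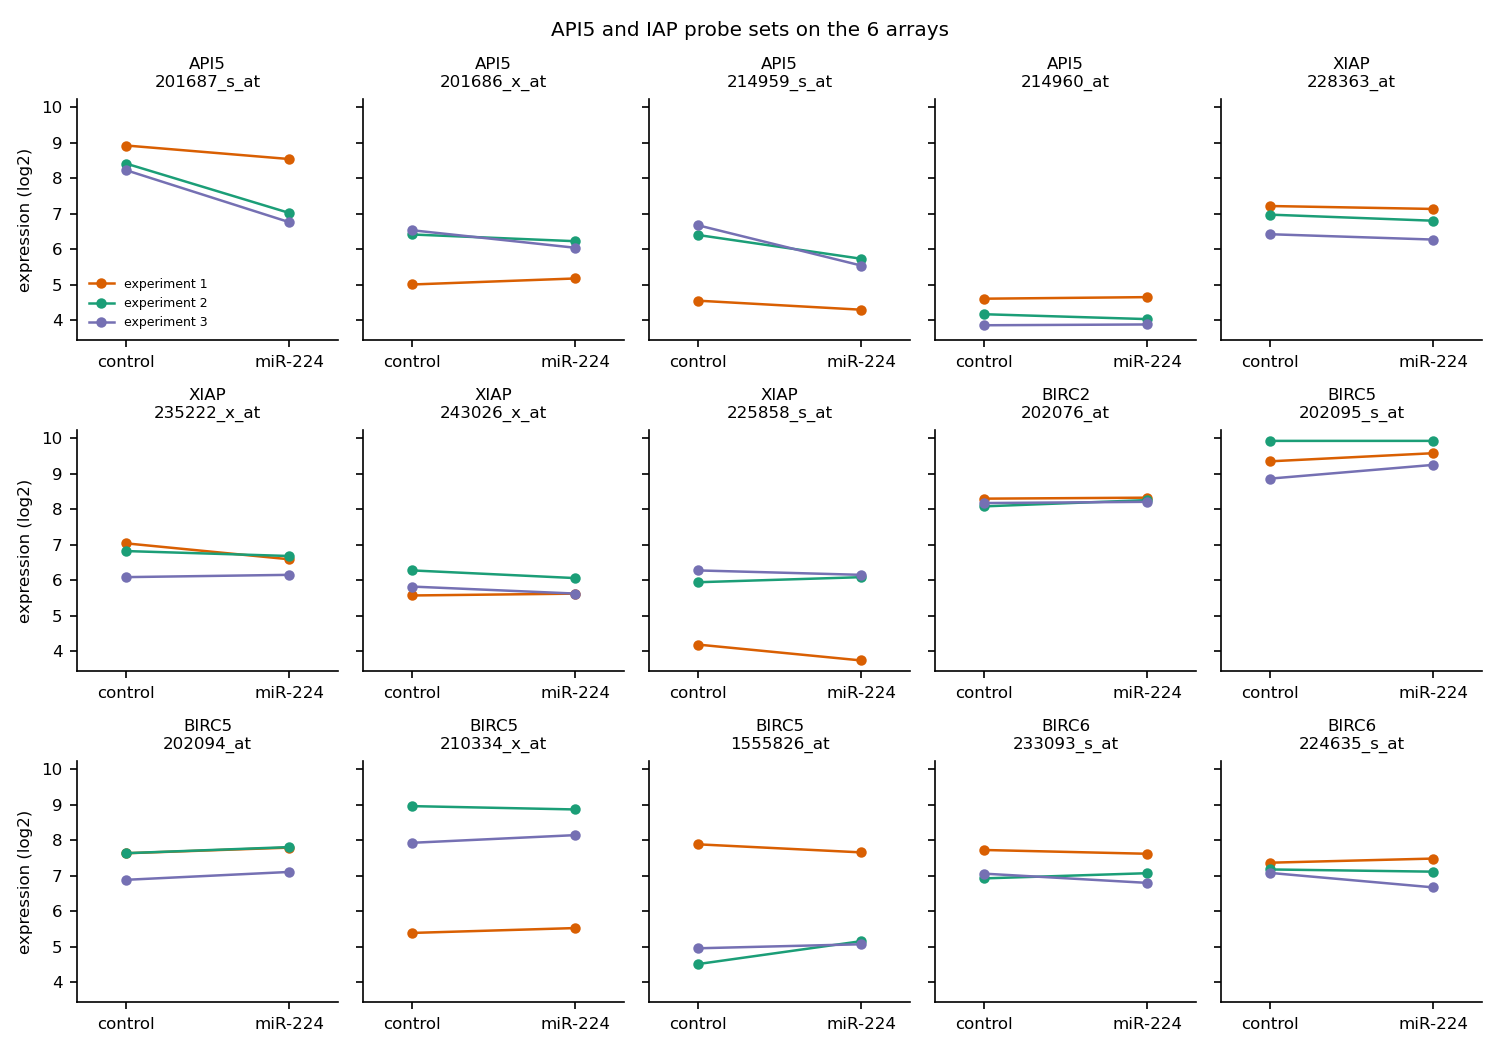
Expression (log2, vertical axis) of the 15 member probe sets at or above the median level, in control and miR-224 cells. Each line joins the 2 arrays of 1 experiment; the API5 lines of 201687_s_at drop in experiments 2 and 3 (8.41 to 7.02 and 8.23 to 6.76), while the BIRC2 lines are nearly flat.

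The 5 API5 probe sets did not agree in size. The suffix of 214959_s_at marks probes shared by several transcripts. The brightest API5 probe set carries the same suffix, as do several probe sets of the IAP genes. On 214959_s_at control cells read 4.55, 6.40 and 6.67 in experiments 1, 2 and 3, and miR-224 cells read 4.29, 5.73 and 5.54. Signal was again lower in the miR-224 cells of every experiment, by -0.25, -0.67 and -1.14, with a mean of -0.69 ± 0.16 (SE; limma adjusted p = 0.28). That left 62.1% of the control signal (95% interval 48.2% to 80.1%).

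On 201686_x_at, whose suffix marks probes that may also bind other sequences, control cells read 5.00, 6.41 and 6.53 and miR-224 cells read 5.17, 6.22 and 6.04. The miR-224 array was higher in experiment 1 and lower in experiments 2 and 3, and the mean difference was -0.17 ± 0.14 (SE; limma adjusted p = 0.74). The remaining API5 probe sets showed less. For 214960_at the differences were 0.04, -0.14 and 0.02, and for the dim 233078_at they were 0.10, -0.32 and -0.10.

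Within each experiment the difference on 201687_s_at was below that on 201686_x_at, by -0.55, -1.20 and -0.97 (mean -0.91 ± 0.33 SD, n = 3 pairs). With 3 pairs an exact two-sided sign-flip test cannot give a p under 0.25, and the gap was tested in no other way. Averaged over its 5 probe sets, API5 was lower by -0.41 ± 0.12 (SE; limma adjusted p = 0.33).

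XIAP, which binds and inhibits caspases, showed small differences on all 7 probe sets, none of which passed. The brightest (228363_at) read 7.22, 6.97 and 6.42 in control cells of experiments 1, 2 and 3 and 7.13, 6.80 and 6.27 in miR-224 cells. Each miR-224 array was slightly lower than its control, by -0.08, -0.17 and -0.15, and the groups overlapped. The mean difference was -0.13 ± 0.10 (SE; 95% interval -0.37 to 0.10; limma adjusted p = 0.72). On this probe set a loss of more than 22.4% of the signal lay outside the interval. Over the 4 XIAP probe sets at or above the median level that limit ranged from 22.4% to 27.2% (235222_x_at). Over the dim ones it ranged from 7.83% (206536_s_at) to 30.4% (225859_at). The dim 206536_s_at averaged 2.44, where little signal is left to lose, so its limit does not bound a loss of XIAP.

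The other 3 XIAP probe sets at or above the median level had mean differences of -0.17 (235222_x_at), -0.12 (243026_x_at) and -0.14 (225858_s_at), and each changed sign between experiments. On 235222_x_at the differences were -0.45, -0.14 and 0.06. Of the 3 dim ones, 225859_at was at -0.24 ± 0.13 (SE), while 206536_s_at and 206537_at were at 0.15 and 0.11.

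BIRC2 (cIAP1), a ubiquitin ligase of TNF receptor complexes, was read by 1 probe set (202076_at) and differed little. Control cells read 8.30, 8.08 and 8.18 in experiments 1, 2 and 3 and miR-224 cells read 8.33, 8.26 and 8.21. The groups overlapped, with a difference of 0.08 ± 0.10 (SE; 95% interval -0.16 to 0.32; limma adjusted p = 0.86).

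BIRC5 had a higher mean in miR-224 cells on all 4 of its probe sets, though none passed the test. The brightest (202095_s_at) read 9.35, 9.93 and 8.87 in control cells and 9.58, 9.93 and 9.25 in miR-224 cells of experiments 1, 2 and 3. Its difference was 0.23 in experiment 1 and 0.39 in experiment 3, and close to 0 in experiment 2, with a mean of 0.21 ± 0.11 (SE; limma adjusted p = 0.60).

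Probe set 202094_at of BIRC5 was higher by 0.16, 0.17 and 0.22, the most even set of differences among the members (SD 0.03), with a mean of 0.18 ± 0.10 (SE; limma adjusted p = 0.59). On 210334_x_at the mean difference was 0.09, and on 1555826_at it was 0.18, with -0.23, 0.64 and 0.11 in experiments 1, 2 and 3. These probe sets share the transcripts of 1 gene and are not independent of each other.

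BIRC6, which ubiquitinates pro-apoptotic proteins and acts at the midbody of dividing cells, was read by 2 probe sets. Both had a slightly lower mean, and each changed sign between experiments. On 233093_s_at control cells read 7.73, 6.92 and 7.06 and miR-224 cells read 7.62, 7.07 and 6.80. The differences were -0.11, 0.15 and -0.26 (mean -0.07 ± 0.12 SE). On 224635_s_at they were 0.12, -0.06 and -0.41 (mean -0.12 ± 0.13 SE). The limma adjusted p was 0.89 and 0.82.

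**Figure D2:**
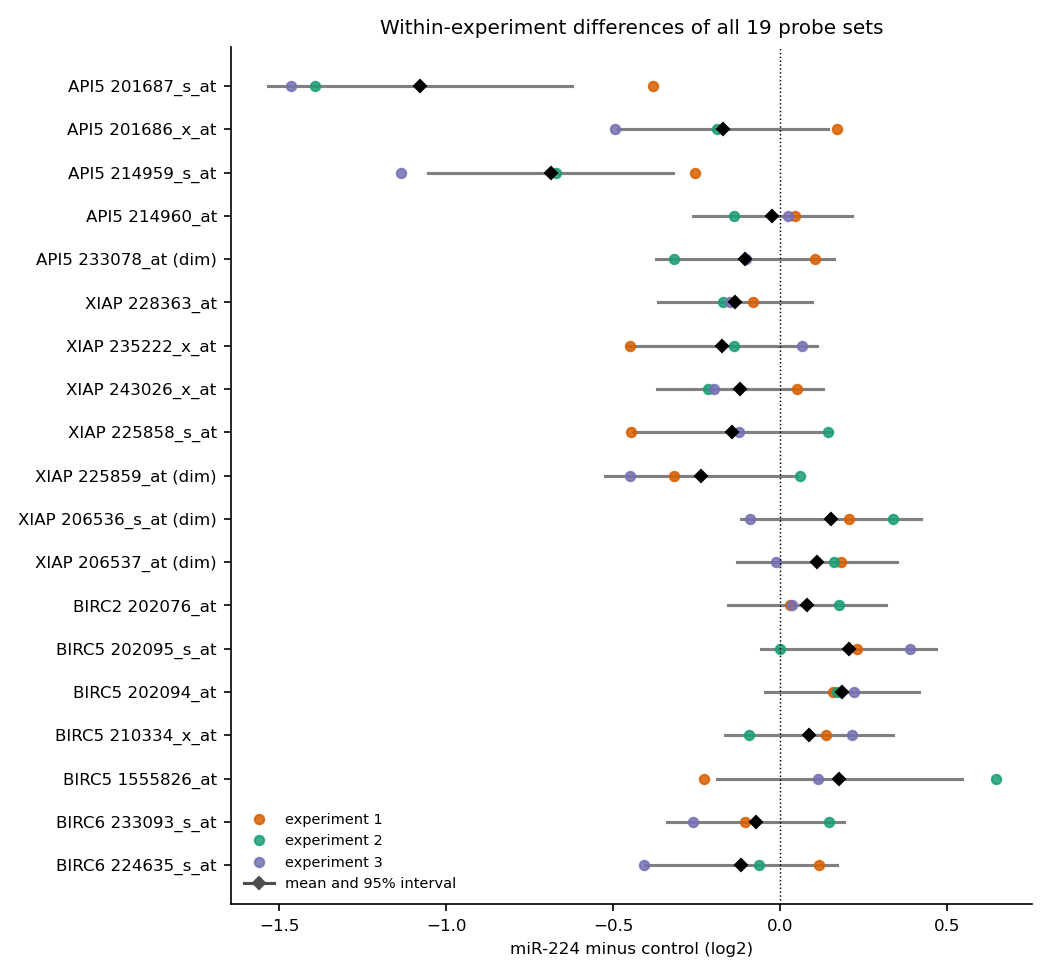
Differences between miR-224 and control cells (log2, horizontal axis) of all 19 member probe sets. Coloured points are the 3 experiments, the diamond is their mean and the bar is the limma 95% interval before adjustment. That interval uses a variance drawn toward a value estimated over all probe sets, so it is not set by the 3 points alone. API5 201687_s_at (mean -1.08) and 214959_s_at (-0.69) lie left of 0 in all 3 experiments, and the limma intervals of the other 17 include 0.

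Over all members, 12 of the 19 probe sets (63.2%, against 48.5% of all probe sets) had a lower mean and 7 a higher one. Of those 12, 5 were of API5 and 5 of XIAP, and probe sets of 1 gene are not independent. The median difference was -0.10, against 0.0054 over all probe sets. Of the members 3 (15.8%) were lower in every experiment and 3 (15.8%) were higher in every experiment, near the 14.8% and 16.5% of all probe sets. An unadjusted p under 0.05 was reached by 2 of 19 (10.5%, against 9.80% of all), both of API5, and in 0 of 19 were the groups free of overlap (2.64% of all probe sets did not overlap with miR-224 lower, and 4.02% with it higher). Without API5, the 14 probe sets of the IAP genes had differences from -0.24 to 0.21, with limma adjusted p from 0.58 to 0.89.

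The mean difference of API5 201687_s_at lay below those of all 14 IAP probe sets, though in experiment 1 alone it did not. The mean differences of API5 201686_x_at (-0.17), 214960_at (-0.02) and 233078_at (-0.10) lay within the IAP range of -0.24 to 0.21, whereas 214959_s_at stood at -0.69. Within experiments 1, 2 and 3, the difference of 201687_s_at was below that of BIRC2 by -0.41, -1.57 and -1.50, and below that of BIRC5 202095_s_at by -0.61, -1.39 and -1.85. Against XIAP 228363_at the gap was -0.30, -1.22 and -1.31. Against XIAP 235222_x_at it was 0.07 in experiment 1 and -1.25 and -1.53 in experiments 2 and 3. These gaps were below 0 in 3 of 3 experiments for BIRC2, BIRC5 and XIAP 228363_at, and the sign-flip limit of 0.25 holds for each.

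Several member probe sets differed more between experiments than between the groups. In experiment 1, 5 of the 19 (26.3%) read more than 1 log2 unit below experiments 2 and 3, against 4.46% of all probe sets, and 2 (10.5%) read more than 1 above, against 5.03%. The shares over all probe sets take in many dim ones, whereas 15 of the 19 members were at or above the median level. The 5 lower ones were of API5, XIAP and BIRC5, and those of 1 gene are not independent. Probe sets of 1 gene moved in opposite directions. For BIRC5, 210334_x_at averaged 5.45 in experiment 1 and 8.48 in experiments 2 and 3, whereas 1555826_at averaged 7.77 and 4.92, and the brightest, 202095_s_at, averaged 9.47 and 9.49.

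API5 and XIAP showed the same split. For API5, 201687_s_at averaged 8.73 in experiment 1 and 7.61 in experiments 2 and 3, while 214959_s_at averaged 4.42 and 6.08. For XIAP, 225858_s_at averaged 3.96 and 6.11, while 228363_at averaged 7.18 and 6.62. The low 5′ control signal of experiment 1 moves with these shifts, and its part in them was not tested, as the place of each probe set along its transcript was not used here. In the 7 probe sets that shifted by more than 1, the direction was the same in both groups but the size was not always. For API5 201687_s_at, experiment 1 stood 0.60 above experiments 2 and 3 in control cells and 1.65 above them in miR-224 cells, and for 214959_s_at the shifts were -1.99 and -1.34. For BIRC5 210334_x_at they were -3.06 and -2.98.

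**Figure D3:**
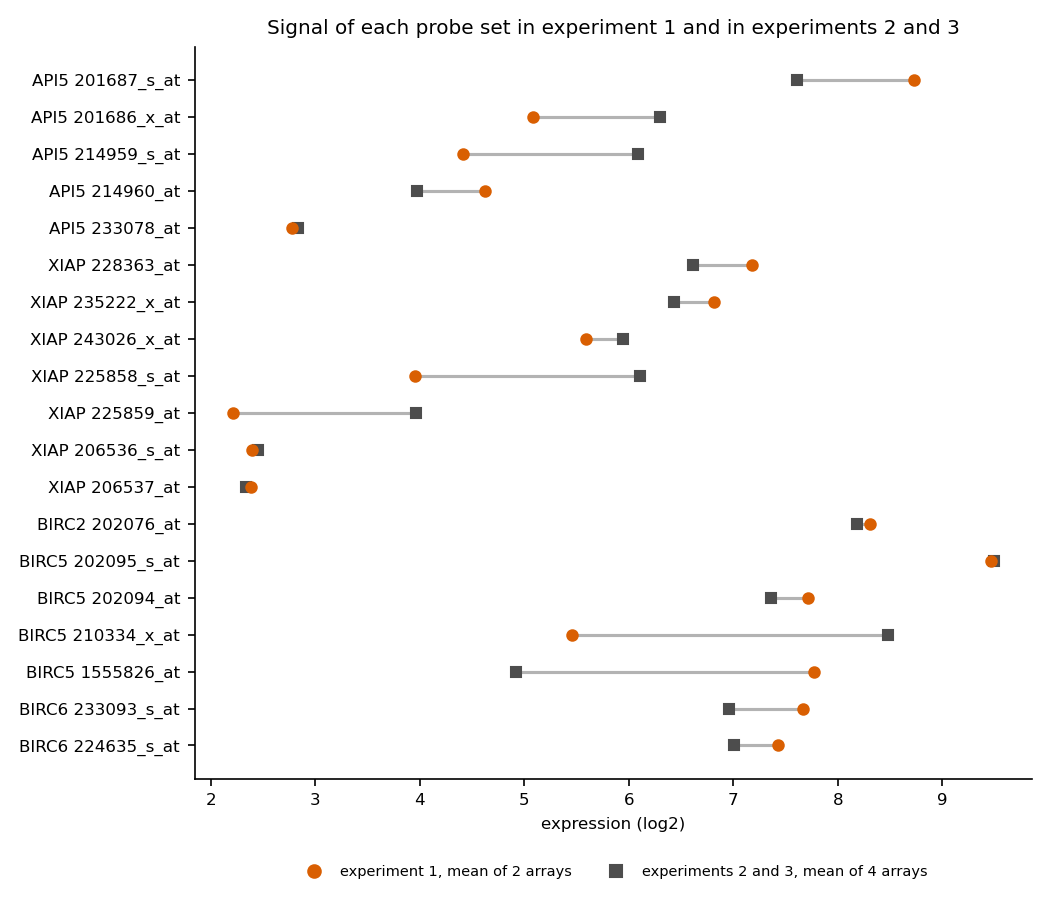
Mean expression (log2, horizontal axis) of each member probe set in experiment 1 (circle, 2 arrays) and in experiments 2 and 3 (square, 4 arrays). The longest lines are those of BIRC5, where 210334_x_at differs by -3.02 and 1555826_at by 2.85 in experiment 1 against experiments 2 and 3.

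Genes that work with the members were read from 8 lists of 54 genes, 49 of them measured, each by its brightest probe set. None passed over all probe sets in either direction (limma with the block; 3 of 49, or 6.12%, had an unadjusted p under 0.05, all lower, against 10.2% of the brightest probe sets of all genes). Of the 49, 33 had a lower and 16 a higher mean, with a median of -0.03, against 0.01 over the brightest probe sets of 19775 genes, of which 9259 were lower.

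Among partners of API5 and the E2F1 axis, on which API5 is reported to act, 7 of 7 had a lower mean, with a median of -0.07. E2F1 stood at 0.23, -0.48 and 0.10 in experiments 1, 2 and 3 (mean -0.05 ± 0.15 SE) and ACIN1, which encodes Acinus, at 0.29, -0.17 and -0.21 (mean -0.03 ± 0.13 SE). The replication licensing gene CDC6 stood at -0.32, -0.23 and -0.26 in experiments 1, 2 and 3 (mean -0.27 ± 0.10 SE, limma adjusted p = 0.44), but its other probe set stood at 0.18, -0.41 and 0.11. Cyclin E1 (CCNE1) stood at -0.13, -0.20 and -0.30, and MCM2, a subunit of the replicative helicase, at 0.06, -0.27 and -0.14. The other CCNE1 probe set, which was dim, stood at 0.02 on average.

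Of the antagonists that release caspases from IAP proteins, 4 of 5 had a lower mean. SEPTIN4, which encodes the XIAP-binding protein ARTS among other forms, was near the median level and stood at -0.19, -0.39 and -0.40 (mean -0.33 ± 0.11 SE, limma adjusted p = 0.39), whereas its other probe sets stood at 0.17 and 0.10 on average. DIABLO (SMAC), released from mitochondria, stood at 0.09, -0.10 and -0.53, and the protease gene HTRA2 at 0.38, 0.20 and -0.31, so both changed sign between experiments.

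Of the 9 caspase and apoptosome genes 7 were measured, 4 lower and 3 higher, with a median of -0.02. CASP6 stood at -0.17 ± 0.11 (SE), CASP8, the initiator caspase of death receptors, at -0.08 ± 0.12, and CASP10 at 0.15 ± 0.11. Their other probe sets above the median level stood at -0.24 (CASP6), 0.20 (CASP8) and 0.13, 0.25 and 0.09 (CASP10). Of the IAP genes outside the members, BIRC7 (livin) stood at 0.17 ± 0.14 (SE) and NAIP, which was below the median level, at -0.05 ± 0.15, and BIRC8 was not analysed here.

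Of 19 genes of the BIRC2 and BIRC3 receptor complexes and NF-kB, 17 were measured, 13 with a lower and 4 with a higher mean (median -0.04). NFKBIA, the NF-kB inhibitor and target, stood at -0.17, -0.13 and -0.22 (mean -0.17 ± 0.10 SE), and TRAF3, an adaptor that brings BIRC2 to the kinase NIK, at -0.02, -0.12 and -0.43 on its brightest probe set. Its other probe set had the opposite sign, at 0.53, 0.25 and 0.69, so no direction can be given for TRAF3. RIPK3, a kinase of necroptosis, stood at 0.31, 0.15 and 0.16 (mean 0.21 ± 0.10 SE). Among 5 partners of XIAP, NOD2 stood at -0.17 ± 0.11 (SE), its adaptor kinase RIPK2 at 0.08 ± 0.11 and COMMD1 at 0.07 ± 0.10. The other RIPK2 probe set, which was dim, stood at 0.25.

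The 3 other genes of the chromosomal passenger complex had a higher mean, as did BIRC5. CDCA8 (borealin) stood at 0.38, -0.08 and 0.29, AURKB, the kinase of the complex, at 0.04, -0.04 and 0.32, and the scaffold INCENP at -0.02, 0.02 and 0.22. The other AURKB probe set, which was dim, stood at 0.25 on average. Of the partners of BIRC6, the midbody kinesin KIF23 stood at -0.02, -0.73 and -0.50 (mean -0.42 ± 0.14 SE, limma adjusted p = 0.41), with a dim second probe set at 0.18. USP8 stood at 0.14 ± 0.11 (SE), with another probe set at -0.19, and UBA6, the ubiquitin-activating enzyme that serves BIRC6, at -0.0065 ± 0.11.

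**Figure D4:**
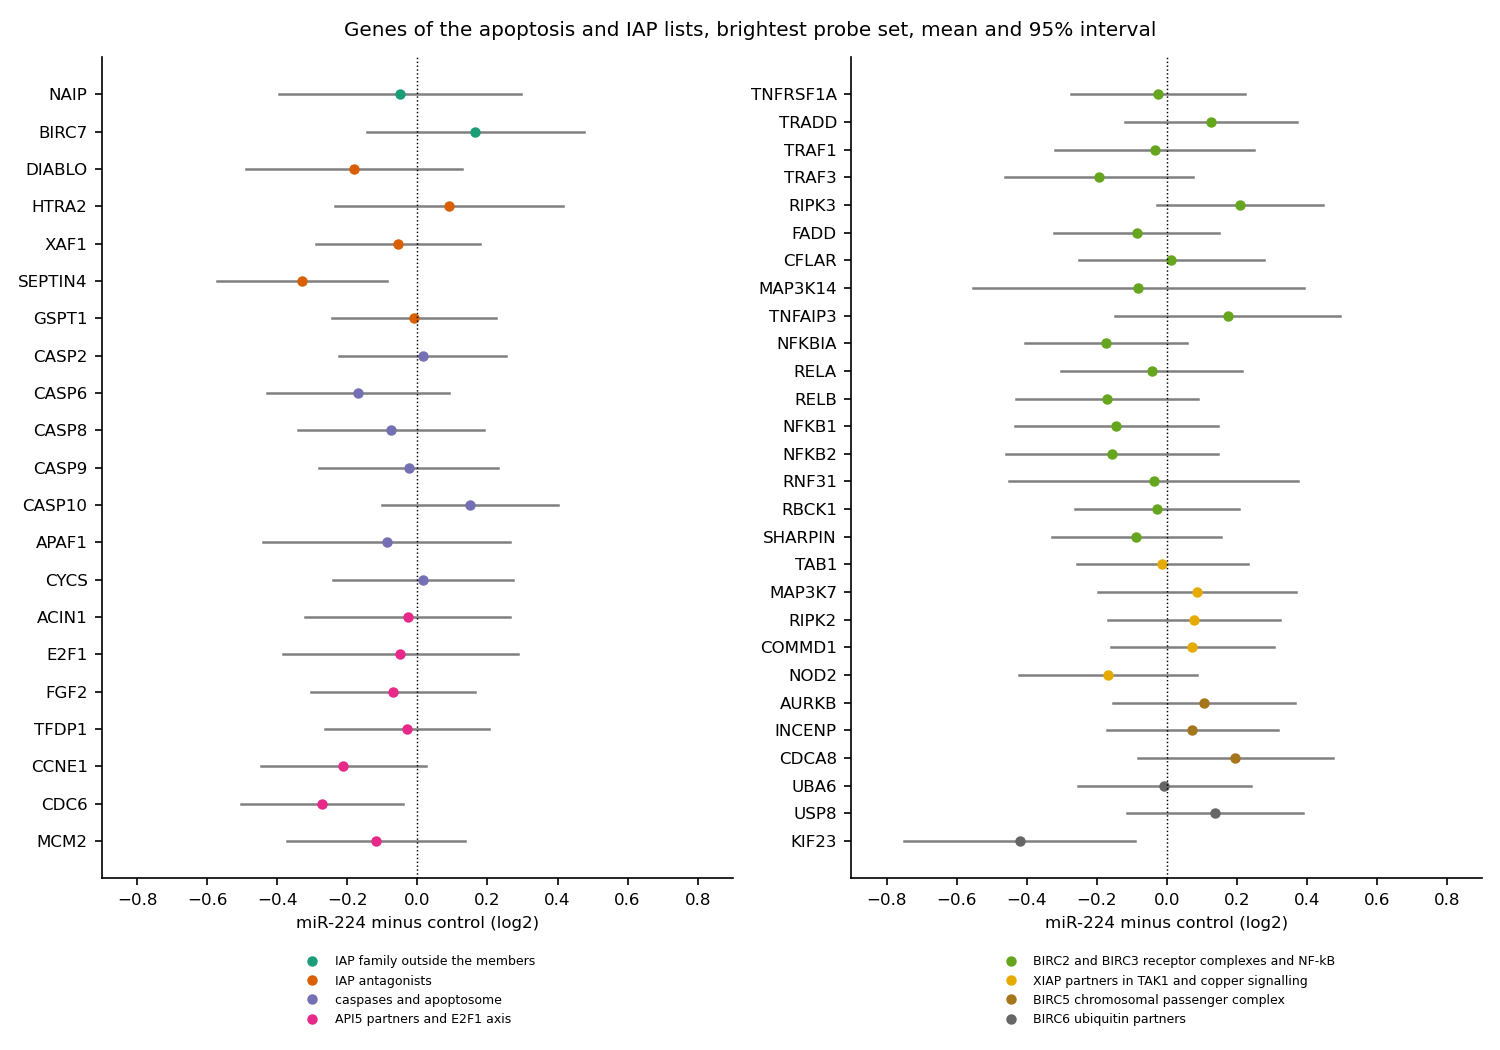
Differences between miR-224 and control cells (log2, horizontal axis) of the 49 measured genes of the 8 lists, by the brightest probe set of each, with the limma 95% interval. Only the intervals of SEPTIN4, CDC6 and KIF23 lie wholly below 0 before adjustment, and none lies wholly above.

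The genes whose 3 differences were most like those of API5 201687_s_at, by Euclidean distance among the brightest probe sets of 19775 genes, were PFKFB3 (distance 0.16), SIKE1 (0.20), CDS2 (0.28), ZNF395 (0.29) and RNF13 (0.30). PFKFB3, which makes the glycolytic activator fructose-2,6-bisphosphate, stood at -0.44, -1.32 and -1.33 in experiments 1, 2 and 3. SIKE1 stood at -0.31, -1.53 and -1.58, CDS2 at -0.22, -1.23 and -1.31, ZNF395 at -0.39, -1.31 and -1.18, and the ubiquitin ligase gene RNF13 at -0.43, -1.44 and -1.17. All 5 shared with API5 a smaller difference in experiment 1, which the measure selects, and all had a limma adjusted p of 0.23 to 0.26.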

How the data were processed

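The authors deposited expression values made with RMA and Partek, per the submitters' processing notes. For these tools, no version or setting is given in the sources used here. The deposited values were read as log2, since their base is not stated: they span 1.47 to 13.6, with array medians of 3.41 to 3.53. RMA makes arrays alike in distribution, so a shift shared by most genes cannot be seen.

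The 62 control probe sets were left out, and 54613 were fitted with limma 3.58.1 in R 4.3.3 (lmFit, eBayes, two-sided, Benjamini-Hochberg over all, threshold 0.05) with experiment as a block, leaving 2 residual degrees of freedom. The series states that pairs come from independent experiments. Deviations from group means correlated at 0.902, 0.734 and 0.784 between same-numbered arrays, and at -0.777 to 0.474 otherwise. The negative values all paired experiment 1 with another, while experiments 2 and 3 correlated at 0.47 across numbers. Deviations within a group sum to 0, which by itself lowers the values between unlike numbers. The number of arrays limits the precision.

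Probe sets were named from the array annotation. Of the array's 54675, 41097 had 1 symbol, 1801 several and 11777 none. Symbols checked by gene identifier against RefSeq needed 0 updates. The members, lists and tests were chosen with earlier results of these data known. Genes named are all members, up to 3 a list by smallest unadjusted p at or above the median level, and the 5 most like API5. E2F1, ACIN1, NAIP and marker genes are named outside that rule.

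Alternatives covered the block, each experiment, the variance model, weights, scaling, a level filter and the probe set chosen. On simulated data with 200 changed among 54613 probe sets, the fit recovered 33 of those with a log2 change of 1 and 70 of those with a change of 2. It made 2 false calls. How far the simulated spread matches that between these experiments was not tested, so these counts do not give the power in these data. Figures used matplotlib 3.10.9 in Python 3.11.15.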

Additional observations from a re-analysis of the deposited data

How the results depend on the processing

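Without the replicate block the API5 difference on 201687_s_at was again -1.08, with an SE of 0.49 in place of 0.20 and a limma adjusted p of 1; the block changed no call, and 0 probe sets passed with or without it. The API5 difference kept its direction under all alternatives run, from -1.43 to -0.89 with an experiment left out and at -0.41 when its probe sets were averaged, and its adjusted p ranged from 0.013 to 1. It passed without experiment 1 (-1.43) and, in a fit chosen after seeing the data, over brightest probe sets with variances robust and trended on intensity (-1.08, adjusted p = 0.018). Members past the threshold as lower numbered 0 to 1 with an experiment left out and 1 in that added fit. Over all probe sets 0 to 137 passed with an experiment left out, 28 with trend and robust variances, 56 over brightest probe sets with them, and 2 at an adjusted p under 0.1. The cause of these moves was not tested.

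Of 477 comparisons of 45 other probe sets or genes with an alternative, 453 kept sign and side, 5 newly passed (the genes most like API5, without experiment 1) and 19 changed sign, all of values that did not pass. With an experiment left out the ranges that crossed 0 were -0.0575 to 0.0335 (API5 214960_at), -0.21 to 0.0013 (API5 233078_at), -0.29 to 0.0092 (XIAP 225858_s_at), -0.0568 to 0.38 (BIRC5 1555826_at), -0.18 to 0.0198 (BIRC6 233093_s_at), -0.24 to 0.0270 (BIRC6 224635_s_at), -0.0168 to 0.29 (BIRC7), -0.0523 to 0.29 (HTRA2), -0.18 to 0.0249 (CASP8) and -0.0849 to 0.0401 (UBA6). With probe sets averaged by gene, XIAP was -0.0783 (against positive values on 206536_s_at and 206537_at), CASP8 0.0611, TRAF3 0.15, UBA6 0.0275 and USP8 -0.0276. UBA6 was 0.0146 with array weights and 0.0294 with quantile normalization.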
